A study of Mus musculus with 6 samples.

Results

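Small leucine-rich proteoglycans are secreted proteins built around a core of leucine-rich repeats, many of which carry chondroitin, dermatan or keratan sulfate chains. In bone, tendon and other connective tissue they bind collagen and govern how fibrils assemble, and several of them hold growth factors such as TGF-β in the matrix. Osteoblasts and their stromal precursors are known to make several of them, biglycan, decorin and osteoglycin among them. The genes examined here are Dcn, Bgn, Lum, Fmod, Ogn, Omd, Prelp, Aspn, Podn and Kera, taken by symbol from the deposited counts, so 10 of 20071 genes were members. Of these 10, 9 passed the filter on low counts and were tested, and Kera did not.

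The cells were mesenchymal stromal cells (MSCs) from femurs of 6-week-old mice on a C57BL/6J background, grown for 7 days in osteogenic medium with dexamethasone at 100 nM, β-glycerophosphate at 5 mM and ascorbic acid at 50 µg/mL. Both genotypes carried Pcif1 alleles with loxP sites around exons 5 to 7. The Prrx1-Cre;Pcif1fl/fl mice also carried Cre under the Prrx1 promoter, which is active in limb mesenchyme and not in blood cells, and the Pcif1fl/fl littermates did not. These groups are called CKO and control here (CKO and WT in the deposited labels). PCIF1 methylates the adenosine next to the cap of mRNAs, so the comparison asks how the level of each proteoglycan mRNA differs when MSCs come from mice that lose this enzyme in the mesenchyme. Poly(A) RNA was sequenced in 3 libraries of each genotype. No source used here says whether these came from separate animals or cultures, so p-values measure the spread between libraries, which may be technical.

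The libraries held 20258209 to 28227696 counts. Control replicate 3 stood apart. Mitochondrial genes took 3.63% of its counts against 1.40% to 1.57% in the other 5 libraries, and the chi-square distance per gene to its replicates was 90.1 and 106, where all other pairs within a genotype gave 2.86 to 10.5. The log2 fold change of each tested member is therefore also given without it. Pcif1 itself was at 39.3 to 42.8 CPM (counts scaled to library size with TMM factors) in control and 37.8 to 39.7 CPM in CKO libraries. Counts per gene do not show exons 5 to 7 apart, so this does not check the deletion. Xist was at 232 to 443 CPM in control libraries and at 0.722 to 1.79 CPM in CKO libraries, while the Y-linked gene Ddx3y was counted in all 6 libraries, at 48.4 to 62.2 CPM in control and 99.1 to 104 CPM in CKO libraries, so the sex makeup of the cultures and the genotype cannot be told apart. The MSC marker list gave 3 genes higher and 4 lower of 10 tested, against 2.88% higher and 4.51% lower over all genes. Its sum was 1098 to 1261 CPM in control and 1268 to 1331 CPM in CKO libraries. The 8 macrophage markers were also abundant, with a sum of 26957 to 29421 CPM in control and 26538 to 30562 CPM in CKO libraries, most of it Lyz2. With all 6 libraries 0 of these 8 passed by edgeR, where 3 had an unadjusted p under 0.05 and DESeq2 called 2 higher. Without control replicate 3 edgeR called 3 higher (Itgam, Cd14 and Ptprc) and 1 lower (Csf1r), in a fit that called 11.1% of all genes higher and 10.4% lower.

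Because PCIF1 acts on transcripts whose first base is an adenosine, the bases around the annotated start of each member are shown, with 15 bases before the start and 15 from it, and the first transcribed base in capitals. They were taken from RefSeq on GRCm38.p6, which matched 8 of the 10 members with 9 promoters. The promoter set used here had no entry for Dcn or Lum, so their first bases are not shown. The starts are annotations, not measured caps.
Bgn, chrX:73483586-73483615, plus strand: tcggcccgcccgcccAgcctttagcttccc
Aspn, chr13:49544428-49544457, plus strand: gctatggtacaaacaGtgatggaaaacata
Omd, chr13:49582447-49582476, plus strand: gtacatgttgtttcaTttagtcttgtttgc
Ogn, chr13:49608000-49608029, plus strand: cctgaaactttattcAgcagtttgaaacaa
Prelp, chr1:133921387-133921416, minus strand: ccaataggatctggtAgaagaaaagtcagg
Fmod, chr1:134037239-134037268, plus strand: aacttctggggcatcGctaacttattcagc
Podn, first start, chr4:108031940-108031969, minus strand: ctgcgcccacggctcGacttgaatgacagg
Podn, second start, chr4:108030972-108031001, minus strand: aggatgcaggtgtgcAagaggtggcaggag
Kera, chr10:97607190-97607219, plus strand: cagagtggaaacaatAcatcaaaagctctt
Of the 9 promoters, 5 had an A as the first base, those of Bgn, Ogn, Prelp, Kera and the second start of Podn. Over the 13658 promoters of genes tested, which leave out Kera, the share was 29.5%. The first base depends on the annotation. The start of Bgn is at 73483601 in RefSeq and at 73483602, a G, in GENCODE M21. The first bases of Aspn, Omd and Ogn, which lie in one cluster, differed, with G, T and A. In the windows of 250 bases before to 50 bases from the start, the letters TATAAA, searched on both strands, were found for Aspn and Ogn, as in 7.41% of promoters of genes tested. The letters TGTGGT, a core of sites bound by RUNX factors, were found for Ogn (12.5% of promoters), and GGGCGG, the GC box, for Bgn and Podn (60.9% of promoters). Such matches describe the letters and show no binding.

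Lum and Dcn rose in CKO MSCs and no member passed the test in the lower direction. Of the 9 members, tested by the quasi-likelihood method of edgeR with p-values Benjamini-Hochberg adjusted over 13733 genes, 2 were higher and 0 lower at an adjusted p-value under 0.05. Over all genes tested, 7.40% were called, with 2.88% higher and 4.51% lower. At an unadjusted p-value under 0.05 the lower members were Ogn and Fmod, so 2, where 11.8% of all genes were lower and 9.56% higher, and DESeq2 called 1, Ogn. Without control replicate 3, 2 members were higher and 1, Ogn, lower by edgeR, in a fit that called 11.1% of all genes higher and 10.4% lower. Leaving out any other single library, only Lum was higher, in fits that called 148 to 293 of all genes higher. Ogn was then lower only without control replicate 1, where 486 of 13927 genes were lower. With a fold threshold of 2 added to the fit of all 6 libraries, Lum alone remained called, against 1.03% of all genes higher and 2.50% lower. The median log2 fold change of the 9 members was -0.30, against 0.0017 over all genes, and without control replicate 3 it was -0.0093. These are bulk RNA samples, in which fewer cells of a type and less RNA per cell cannot be told apart.

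The members differed widely in level. Per kilobase of the principal transcript, Bgn, which encodes biglycan, was at 884 ± 296 CPM per kilobase (SD, n = 3) in control MSCs, the 99.7th percentile of the genes tested. Ogn, which encodes osteoglycin, followed at 189 ± 85.1 (SD, n = 3), the 98.1th percentile. Then came Aspn at 29.8 ± 10.4, Prelp at 22.0 ± 5.37, Fmod at 18.3 ± 3.25, Dcn at 17.1 ± 3.77 and Omd at 14.5 ± 8.12 (SD, n = 3 each). Among these 5, the libraries of each gene overlapped with those of its neighbour in the order. Podn at 3.25 ± 0.474 and Lum at 2.82 ± 0.367 (SD, n = 3) were lower than Omd in every control library and overlapped with each other. Lum lay at the 28.7th percentile, below the middle of the genes tested.

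In CKO MSCs Bgn and Ogn kept the first and second place, at 677 ± 22.7 and 96.8 ± 5.67 CPM per kilobase (SD, n = 3). Dcn was next at 28.2 ± 1.89 and overlapped with Aspn at 27.6 ± 1.59 (SD, n = 3). Prelp, Fmod and Omd followed, and the lowest Prelp library, at 16.8, and the highest Fmod library, at 16.7, nearly met. Lum and Podn came last, at 5.71 ± 0.235 and 2.63 ± 0.449 CPM per kilobase (SD, n = 3), and did not overlap. The places of Dcn and Omd depended on the length used in both genotypes. Those of Lum and Podn did so in control MSCs, and those of Aspn, Prelp and Fmod in CKO MSCs. Per kilobase of all exonic bases of a gene, which are 5838 for Dcn against 1758 in its principal transcript, Dcn was at 5.15 in control and 8.49 in CKO MSCs, and the order was the same in both genotypes, with Dcn, Lum and Podn last. Summed over the members, the level was 982, 908 and 1653 CPM per kilobase in control replicates 1 to 3, and 899, 865 and 882 in CKO replicates 1 to 3. Apart from control replicate 3, all libraries lay close together. The log2 ratio of the mean sums was -0.42, and -0.096 without that library.

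**Figure D1:**
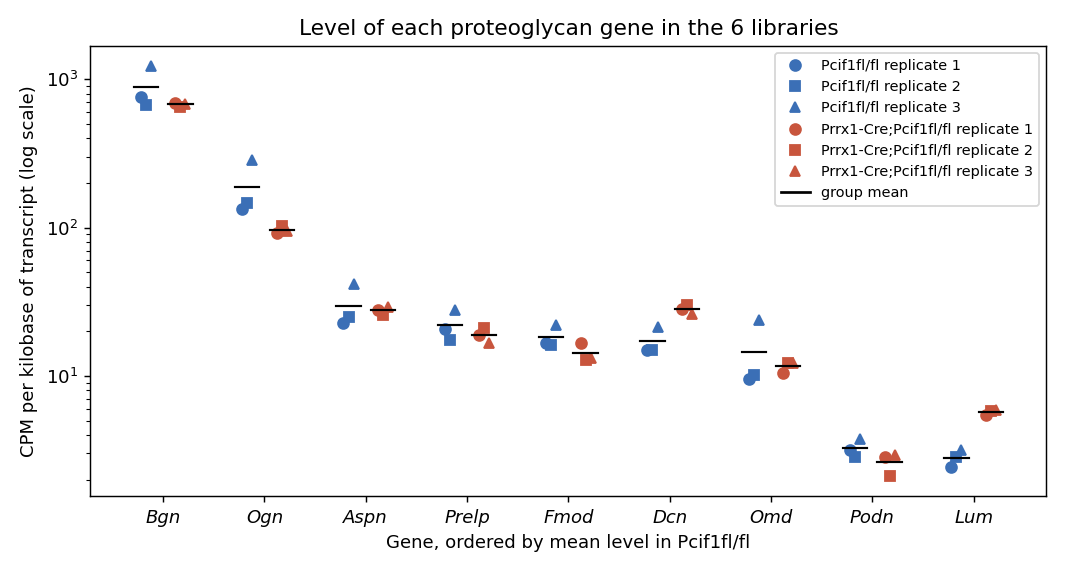
Level of each tested member gene in CPM per kilobase of transcript (log scale), with 1 point for each of the 3 Pcif1fl/fl and 3 Prrx1-Cre;Pcif1fl/fl libraries and a bar at each group mean. Bgn at 884 and Ogn at 189 in Pcif1fl/fl MSCs lie far above the other members, and Dcn and Lum are the genes whose Prrx1-Cre;Pcif1fl/fl points all lie above the Pcif1fl/fl points.

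Bgn dominated the summed level in both genotypes. It took 75.0 ± 1.85% of it in control and 76.7 ± 1.14% in CKO libraries (SD, n = 3 each). The share of Ogn was 15.7 ± 1.90% and 11.0 ± 0.854% (SD, n = 3 each). Dcn made up 1.49 ± 0.175% and 3.20 ± 0.251%, and Lum 0.251 ± 0.0593% and 0.648 ± 0.0371% (SD, n = 3 each). With all exonic bases as length the shares in control and CKO libraries were 55.7% and 59.3% for Bgn, 29.3% and 21.4% for Ogn, 0.838% and 1.88% for Dcn and 0.469% and 1.26% for Lum, so that their size, but not which genotype was higher, depended on the length. Each share was described and not tested.

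Class I holds Dcn, Bgn and Aspn. Dcn (ENSMUSG00000019929, chr10:97479609-97518143, GRCm38) encodes decorin, which binds collagen I fibrils and TGF-β. It was at 26.3, 26.2 and 37.7 CPM in control replicates 1 to 3 and at 49.9, 52.7 and 46.1 CPM in CKO replicates 1 to 3. Every CKO library was above every control library, as for 15.0% of all genes tested, where 30.8% did not overlap in either direction. This gave a log2 fold change of 0.72 (standard error 0.16, edgeR adjusted p = 0.0284). The call, more than the size of the difference, depended on which libraries were in the fit. Without control replicate 3 the log2 fold change of Dcn was 0.92 (edgeR adjusted p = 1.03e-06, with 11.1% of all genes then higher). Without control replicate 1 or 2, or CKO replicate 1, 2 or 3, the edgeR adjusted p was 0.0762, 0.106, 0.113, 0.124 and 0.0810, with log2 fold changes of 0.63, 0.63, 0.72, 0.68 and 0.77.

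Bgn (ENSMUSG00000031375, chrX:73483602-73495933) encodes biglycan, a matrix protein of bone that also signals through Toll-like receptors when free. It was at 1833, 1626 and 2956 CPM in control and at 1685, 1577 and 1649 CPM in CKO replicates 1 to 3. The groups overlapped, and control replicate 3 was far above the other 5 libraries. Bgn had a log2 fold change of -0.39 with a 95% interval of -0.85 to 0.082 (edgeR adjusted p = 0.330), and -0.076 without that library. Bgn is X-linked. Of 456 X-linked genes tested, 15 were higher and 32 lower, with a median log2 fold change of -0.028. Over all genes tested, 2.88% were higher and 4.51% lower, with a median of 0.0017. The part of sex makeup in the level of Bgn was not tested.

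Aspn (ENSMUSG00000021388, chr13:49544443-49567565) encodes asporin, a class I protein that binds collagen and TGF-β. Its levels were 52.7, 58.4 and 97.1 CPM in control and 64.8, 60.4 and 67.7 CPM in CKO replicates 1 to 3. All 3 CKO libraries lay between control replicates 2 and 3. The log2 fold change of -0.11 (95% interval -0.60 to 0.38, edgeR adjusted p = 0.805) turned to 0.21 without control replicate 3 (edgeR adjusted p = 0.0664). The antisense gene Cenpp overlaps 0.297% of the exonic bases of Aspn.

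Class II holds Lum, Fmod, Prelp, Kera and Omd, several of which carry keratan sulfate chains. Lum (ENSMUSG00000036446, chr10:97565128-97572703) encodes lumican, which regulates fibril diameter in cornea, skin and tendon. It was at 5.98, 6.91 and 7.78 CPM in control and at 13.3, 14.2 and 14.4 CPM in CKO replicates 1 to 3. Every CKO library was above every control library, as for 15.0% of all genes tested, and the spread within each genotype was small. This was a log2 fold change of 1.02 (standard error 0.14, edgeR adjusted p = 0.00375). Without control replicate 3 it was 1.11 (edgeR adjusted p = 1.72e-05). Lum passed in all 14 alternative fits run for it, with log2 fold changes of 0.93 to 1.11 and adjusted p-values of 2.80e-07 to 0.0277.

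Fmod (ENSMUSG00000041559, chr1:134037254-134048277) encodes fibromodulin, which acts on early collagen fibrils in tendon. It was at 52.4, 50.1 and 68.7 CPM in control and at 52.2, 39.8 and 40.9 CPM in CKO replicates 1 to 3. CKO replicate 1 lay among the control libraries and the other two lay below them. Fmod had a log2 fold change of -0.37 (95% interval -0.73 to -0.0052, edgeR unadjusted p = 0.0475 and adjusted p = 0.227). Without control replicate 3 it was -0.21 (edgeR adjusted p = 0.172).

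Prelp (ENSMUSG00000041577, chr1:133910304-133921414) encodes a protein with a basic end that binds heparan sulfate and collagen. It was at 74.6, 62.9 and 101 CPM in control and at 68.0, 75.8 and 60.6 CPM in CKO replicates 1 to 3, so that the groups overlapped. Prelp had a log2 fold change of -0.22 (95% interval -0.62 to 0.17, edgeR adjusted p = 0.519), and of -0.0093 without control replicate 3 (edgeR adjusted p = 0.958). The antisense gene Gm15851 overlaps 9.68% of the exonic bases of Prelp, and with the use of strand in counting not given, its reads cannot be told from those of Prelp.

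Omd (ENSMUSG00000048368, chr13:49582462-49592822) encodes osteomodulin, a keratan sulfate proteoglycan known from mineralized tissue. It was at 21.4, 22.8 and 53.7 CPM in control and at 23.4, 27.4 and 27.6 CPM in CKO replicates 1 to 3. Control replicate 3 was above all other libraries, and the other 2 control libraries were the lowest. The log2 fold change of -0.33 (95% interval -1.07 to 0.42, edgeR adjusted p = 0.616) turned to 0.24 without that library (edgeR adjusted p = 0.103). Kera (ENSMUSG00000019932, chr10:97606879-97613692), which encodes the corneal proteoglycan keratocan, had 1 count in control replicate 3 and 0 in the other 5 libraries. A count of 0 allows up to 3 counts in a library, so Kera was not detectable at this depth in those libraries.

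Class III is represented by Ogn (ENSMUSG00000021390, chr13:49608046-49624501), whose product osteoglycin, also called mimecan, is found in bone matrix. It was at 343.9, 376.0 and 737.0 CPM in control and at 237.6, 265.0 and 242.9 CPM in CKO replicates 1 to 3. Every CKO library was below every control library, as for 15.7% of all genes tested, and control replicate 3 was far above its replicates. The log2 fold change of Ogn was -0.97 (standard error 0.26, 95% interval -1.57 to -0.36, edgeR adjusted p = 0.0657), so it did not pass. Without control replicate 3 the log2 fold change was -0.53 (standard error 0.068) and passed (adjusted p = 3.56e-05), with 10.4% of all genes then lower. Without control replicate 1 it was -1.16 (edgeR adjusted p = 0.0379). DESeq2 gave -0.96 (adjusted p = 0.00345).

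Class V is represented by Podn (ENSMUSG00000028600, chr4:108014791-108096445), which encodes podocan, a collagen-binding protein. It was at 10.05, 8.93 and 11.9 CPM in control and at 9.003, 6.72 and 9.33 CPM in CKO replicates 1 to 3. The groups overlapped, and the log2 fold change was -0.30 (95% interval -0.71 to 0.11, edgeR adjusted p = 0.384). For Podn it was -0.18 without control replicate 3 and -0.17 without CKO replicate 2 (edgeR adjusted p = 0.474 and 0.718).

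**Figure D2:**
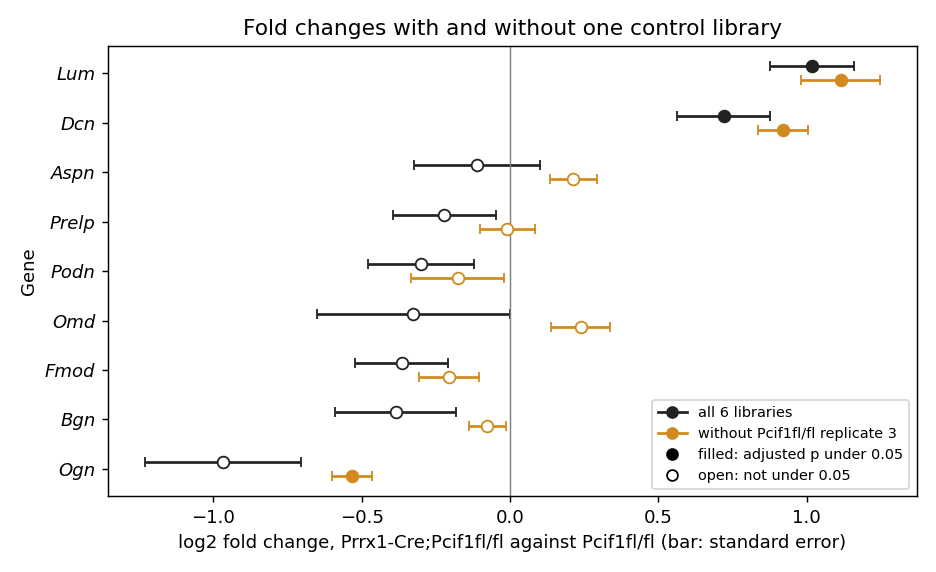
Log2 fold change of each tested member, Prrx1-Cre;Pcif1fl/fl against Pcif1fl/fl, from all 6 libraries and without Pcif1fl/fl replicate 3. Bars are standard errors and filled points have an adjusted p-value under 0.05. Lum at 1.02 and Dcn at 0.72 are filled in both fits, and Ogn is filled when that library is left out, at -0.53.

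The high level in control replicate 3 was shared by the members. Set against the mean of control replicates 1 and 2, its level was 2.43 times as high for Omd, 2.05 for Ogn, 1.75 for Aspn and 1.71 for Bgn, and it was between 1.21 and 1.47 times as high for the other 5. The median was 1.47 over the 9 members and 0.998 over all genes tested. So 4 members reached 1.5 times, against 9.25% of all genes. This library was the highest of the 3 control libraries in 9 of 9 members and in 42.7% of all genes tested. The 6 cell-cycle markers summed to 274, 309 and 397 CPM in control replicates 1 to 3 and to 228 to 264 CPM in CKO libraries. Of these, 1, Ccnb1, passed as lower by edgeR, against 3 of 6 by DESeq2 and 4 of 6 by edgeR without control replicate 3. Over all genes, edgeR called 4.51% lower and 2.88% higher with 6 libraries, and 10.4% lower and 11.1% higher without control replicate 3. DESeq2 called 830 of 20071 genes lower and 593 higher. The cell-cycle markers did not move together in control replicate 3. Mki67 was highest there, at 175 CPM against 66.8 and 95.3 CPM in its replicates, and Cdk1 lowest of the controls, at 15.7 CPM against 25.5 and 23.7 CPM. The osteoblast markers summed to 551 to 687 CPM in control and to 258 to 302 CPM in CKO libraries. Of these, 3 of 7 tested passed as lower, Sp7, Alpl and Ibsp, with Bglap near 0 in every library. Runx2, Phex and Bglap2 had log2 fold changes of -0.41, -0.86 and -0.49 and did not pass, and Runx2 was at -0.16 without control replicate 3. Dmp1 went the other way and did not pass, at 0.48, and at 1.04 without control replicate 3 (edgeR adjusted p = 0.0528). Of the adipocyte markers, 4 of 6 were lower (sums of 474 to 572 CPM in controls and 426 to 614 CPM in CKO libraries), while Fabp4 and Lpl had log2 fold changes of 0.46 and 0.23, of which DESeq2 called 1 as higher and edgeR without control replicate 3 called both. Of the chondrocyte markers, 2 of 4 were lower (41.5 to 54.0 against 33.6 to 40.2 CPM), while Col2a1, with a log2 fold change of 0.69, was higher by DESeq2 and by edgeR without control replicate 3. Of 3 tendon markers 0 passed by edgeR and by DESeq2, with 1 higher at an unadjusted p under 0.05 and sums of 7.31 to 9.09 against 8.51 to 10.2 CPM. The endothelial markers summed to 25.6, 21.6 and 35.9 CPM in control replicates 1 to 3 and to 19.5 to 21.6 CPM in CKO libraries. Smooth muscle markers summed to 561, 485 and 647 CPM in control replicates 1 to 3 and to 533 to 558 CPM in CKO libraries. Of 5 genes in each list 0 passed by edgeR, while DESeq2 and edgeR without control replicate 3 called 1 lower in each. The part of these marker lists in the members' levels was not tested.

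**Figure D3:**
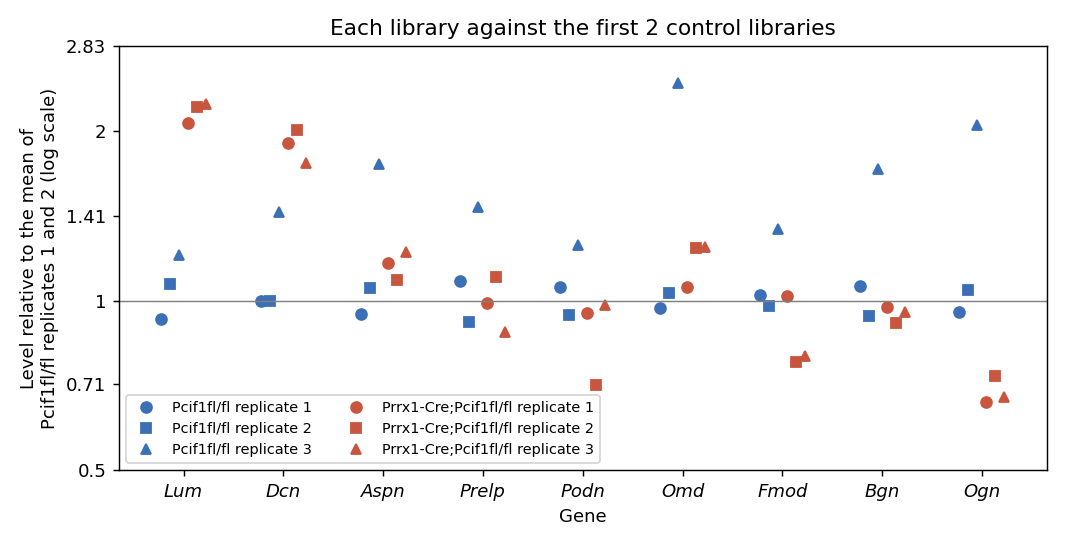
Level of each tested member in each library, divided by the mean of Pcif1fl/fl replicates 1 and 2, on a log scale. Pcif1fl/fl replicate 3 reaches 2.43 for Omd and 2.05 for Ogn, while the 3 Prrx1-Cre;Pcif1fl/fl libraries lie between 1.76 and 2.23 for Lum and Dcn and between 0.660 and 0.736 for Ogn.

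Several members lie next to one another. Dcn, Lum and Kera follow in one direction on chromosome 10, with gaps of 46984 and 34175 bases. Aspn, Omd and Ogn follow on chromosome 13 with gaps of 14896 and 15223 bases, and Prelp and Fmod lie 115839 bases apart on chromosome 1. Ratios of levels within a library were compared for 7 pairs with a two-sided exact permutation test, which cannot go below a p of 0.1 for 3 libraries against 3.

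In the chromosome 13 cluster, the ratios of Ogn to Omd and of Ogn to Aspn separated the genotypes. The ratio of Omd to Aspn did not. Ogn by itself also did not overlap, and 30.8% of all genes tested did not overlap in either direction. The share of gene pairs whose ratio separates the genotypes was not computed. The ratio of Ogn to Omd, in CPM per kilobase, was 14.06, 14.44 and 12.02 in control and 8.91, 8.47 and 7.72 in CKO replicates 1 to 3. The ratio of Ogn to Aspn was 5.93, 5.84 and 6.89 against 3.33, 3.98 and 3.25. Neither ratio overlapped between genotypes, and control replicate 3 lay closer to its replicates than to any CKO library on both. The log2 differences were -0.69 and -0.82 (exact permutation p = 0.1, adjusted p = 0.14 over the 7 pairs, each), and -0.77 and -0.75 without control replicate 3. The ratio of Omd to Aspn overlapped, with a log2 difference of -0.13 (exact permutation p = 0.6) that turned to 0.024 without control replicate 3 and was -0.049 without CKO replicate 1, -0.23 without control replicate 2 and -0.22 without CKO replicate 2. Ecm2, the leucine-rich gene that lies 11653 bases to the left of Aspn, fell. It was at 5.42, 5.11 and 7.17 CPM in control and at 2.70, 2.14 and 1.73 CPM in CKO replicates 1 to 3, a log2 fold change of -1.43 (edgeR adjusted p = 0.00737).

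On chromosome 10 the ratio of Lum to Dcn was 0.164, 0.189 and 0.148 in control and 0.192, 0.194 and 0.224 in CKO replicates 1 to 3. The groups did not overlap but nearly met. The log2 difference was 0.29 (exact permutation p = 0.1, adjusted p = 0.14). Across clusters, the ratio of Dcn to Bgn was 0.0197, 0.0222 and 0.0176 against 0.0408, 0.0460 and 0.0385, a log2 difference of 1.08 (exact permutation p = 0.1, adjusted p = 0.14) and 0.99 without control replicate 3. The log2 difference of Ogn to Dcn was -1.62, again without overlap. That of Prelp to Fmod was 0.16 (exact permutation p = 0.4), and the groups overlapped. It was 0.094 without control replicate 2, and 0.28 and 0.011 without CKO replicates 1 and 2.

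**Figure D4:**
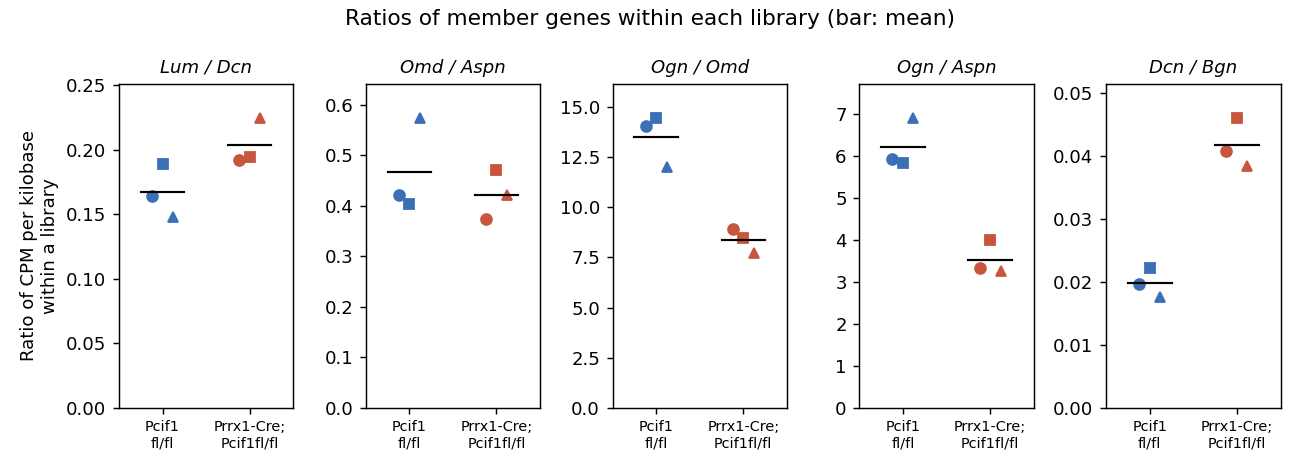
Ratio of the levels of 2 members within each library, in CPM per kilobase, for 5 of the 7 pairs, with a bar at each group mean and each axis starting at 0. The ratios of Ogn to Omd (12.02 to 14.44 against 7.72 to 8.91), Ogn to Aspn and Dcn to Bgn separate the genotypes, and that of Omd to Aspn does not.

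Over the 6 libraries, the patterns nearest to that of Lum by root mean square difference of centred log2 CPM, among 12634 genes, were Kcnj15 (0.052), Epha3 (0.074) and Plek (0.078), and the nearest member was Dcn (0.19). The nearest to Dcn were Cd44 (0.035), Hecw1 (0.059) and Pdpn (0.067). For Ogn they were Cobll1 (0.12), Sobp (0.13) and Ccdc152 (0.13), with Bgn as the nearest member (0.31). Fmod was nearest to Glis3 (0.064), Per2 (0.070) and Stard10 (0.072).

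Genes that build the chains, or that the core proteins bind, were counted in 7 lists. Of the other leucine-rich family genes, 0 of 5 tested were higher and 1, Ecm2, was lower. Tsku, Podnl1 and Chadl had log2 fold changes of -0.18, -0.23 and -0.44 and did not pass. Of 29 genes for chondroitin and dermatan sulfate chains, 3 were higher and 0 lower by edgeR. At an unadjusted p under 0.05, 7 were higher and 2 lower. DESeq2 called 4 higher and 1 lower, and without control replicate 3 edgeR called 7 higher and 3 lower. Chst3 and Chst13, sulfotransferases of chondroitin chains, rose with log2 fold changes of 1.69 and 1.05 (edgeR adjusted p = 0.0105 and 0.0126), and Ugdh, which makes the uronic acid precursor, by 0.37. Xylt1, which starts the chain on the core protein, had a log2 fold change of 0.64 and did not pass (edgeR adjusted p = 0.0581), but did without control replicate 3 (0.78, edgeR adjusted p = 0.000227). Of the 9 genes for keratan sulfate chains 0 passed by edgeR and by DESeq2, with 1 higher and 2 lower at an unadjusted p under 0.05. The 4 with the smallest p-values, B4galt1, Chst2, Fut8 and St3gal1, had log2 fold changes of 0.28, -0.36, -0.30 and 0.18. Without control replicate 3, B4galt1 and St3gal1 passed as higher and Chst2 as lower.

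Of 18 genes for matrix proteins of collagen fibrils, all collagen genes but the fibronectin gene Fn1, 3 were higher and 1 lower. Col1a1 and Col1a2, the chains of collagen I, rose by log2 fold changes of 0.61 and 0.64, from 4039 ± 511 and 4105 ± 779 CPM to 6173 ± 299 and 6377 ± 154 CPM (SD, n = 3). Col12a1 rose by 0.60 and Col27a1 fell by 0.88 on the log2 scale. Of 15 genes for enzymes and enhancers that process the core proteins or cleave them, 1 was higher and 2 were lower. Mmp2 rose by 0.50, Adamts9 fell by 1.31 and Adamts5 fell by 0.61 on the log2 scale, and Mmp13 (-0.34) did not pass. Of 23 receptors and growth factors, 1 was higher and 3 were lower. Ccn2 rose by 0.57, while Bmp4, Tgfbr3 and Egfr fell by 1.44, 0.99 and 0.87 on the log2 scale. Of 18 large and cell-surface proteoglycans, Spock2 (0.71) and Agrn (0.46) were higher and Esm1 (-1.54) lower, and Cspg4 (0.64) did not pass. Over the 7 lists, the 10 higher genes became 32 without control replicate 3, 4 without control replicate 2, and 2, 5 and 1 without CKO replicates 1, 2 and 3, and the 8 lower genes became 23 without control replicate 3. Podnl1 and Mmp13 as lower and Cspg4 as higher were among those that passed without control replicate 3. The background over all genes tested was 2.88% higher and 4.51% lower with 6 libraries, and 11.1% higher and 10.4% lower without control replicate 3. All 18 list genes that passed with 6 libraries passed in the same direction without that library.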

How the data were processed

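Libraries were made from poly(A) RNA of MSCs, 3 for each genotype, and sequenced (PE150). The authors mapped reads to mm10 with HISAT2 and deposited raw counts per gene. The counting tool, annotation and strand setting are not given in the sources used here, and the deposited design text speaks of duplicates where the labels show 3 libraries. Of 20163 rows, 92 repeated an ID with the same counts and were used once, which left 20071 genes. The quasi-likelihood test of edgeR 4.0.16 was run under R 4.3.3 after filterByExpr and TMM scaling, with p-values Benjamini-Hochberg adjusted over 13733 genes and called at an adjusted p under 0.05. Levels per kilobase used the principal transcript of GENCODE M21. Standard errors are the log2 fold change divided by the root of the F statistic. Intervals and floors cover counting error and the spread between libraries only. The fits were also run on simulated counts, with an outcome that is not given here. Members, lists and named genes were chosen with earlier results of these data known. Named were all members, the 4 genes of each list with the smallest p, genes of the most alike pattern, neighbours of members and label checks, while Lyz2, Bglap, Fn1, Cdk1, Ptprc and any other gene named outside this rule were chosen after their values were seen. Alternatives were DESeq2 1.42.0, limma-voom 3.58.1, RLE or total-count scaling, other filters, the replicate number as a block, a fold threshold, every deposited row and leaving out each library. The length of all exonic bases, for the sums, shares and order of levels, was chosen after seeing the data.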

Additional observations from a re-analysis of the deposited data

How the results depend on the processing

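Of 126 alternative fits of the 9 members' log2 fold changes, 115 kept the direction and the side of the threshold, 4 newly passed, 5 no longer passed and 2 changed sign. Leaving out 1 library at a time, the log2 fold change of Dcn ran from 0.63 to 0.92, that of Ogn from -1.16 to -0.53, of Omd from -0.55 to 0.24 and of Aspn from -0.27 to 0.21, and the log2 ratio of Omd to Aspn from -0.23 to 0.024. Those of Bgn (-0.55 to -0.076), Fmod (-0.49 to -0.21), Prelp (-0.36 to -0.0093) and Podn (-0.39 to -0.17) kept their direction. The sign for Omd, Aspn and their ratio changed without control replicate 3, and the cause was not tested. Ogn also passed with DESeq2 (-0.96) and with no filter on low counts (-0.97). Members lower were 1 with DESeq2 and 1 with no filter, and 0 to 1 leaving out 1 library. Members higher were 1 with a fold threshold of 2, and 1 to 2 leaving out 1 library. Over the 7 lists, 10 genes were higher and 8 lower, against 18 higher with DESeq2, 2 higher and 4 lower with the fold threshold, and 1 to 32 higher and 6 to 23 lower leaving out 1 library. Over all genes, 396 were higher and 620 lower, against 142 and 343 with the fold threshold, and 148 to 1544 higher and 324 to 1447 lower leaving out 1 library. With DESeq2 they were 593 and 830. The fold threshold lowers counts by construction.

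The replicate numbers did not pair the libraries, with correlations of deviations of 0.064, -0.050 and -0.0016 for same-numbered libraries. With the replicate number as a block, Dcn (0.74) and Lum (1.03) passed and Ogn (-0.88) did not, 2 members were higher and 0 lower, 8 list genes were higher and 8 lower, and over all genes 267 were higher and 503 lower. The log2 ratio of summed levels was -0.49 with all exonic bases as length. With 3 libraries per genotype, the differences of Omd and Aspn changed sign and those of Bgn and Prelp came near 0 without control replicate 3, while Ogn kept its direction, and Kera could not be measured at this depth.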
